A study of Oryza sativa with 10 samples.

Results

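The genes described here are 8 members of the JAZ family of rice (Oryza sativa), JAZ6 to JAZ13, out of 38978 genes counted. They were chosen by identifier, by a rule that uses no measured value, though with earlier results of these data known. Each of the 8 identifiers was found once. JAZ proteins repress the jasmonate response. They bind transcription factors such as MYC2 and hold their target genes silent, and when the active hormone, a jasmonate-isoleucine conjugate, joins a JAZ protein to its receptor COI1, the JAZ protein is marked for degradation and the targets are released. JAZ genes are themselves among those targets, so that jasmonate generally raises the transcripts of its own repressors. In roots jasmonate is known for restraining growth and for its part in stress and defence responses.

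RNA was sequenced from tissue labelled as root of 2 rice lines: S13, whose genotype label is Salt Tolerant, and S3, whose label is Salt Susceptible. All plants were 42 days old, and for the last 12 days had stood in 140 mM NaCl (salt) or in 0 mM NaCl (control). The labels give no other allele or agent. S13 control and S3 control held 2 libraries each, S13 salt and S3 salt 3 each, so that 10 libraries fell into 4 groups. Whether replicate libraries stem from different plants is not labelled, so the p-values reflect library-to-library spread that may be only technical. No batch or date is labelled either.

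The libraries held 22938524 to 25703942 counts, of which the 8 genes took 10096 to 35807. All 8 genes passed the filter on low counts, as did 28189 of all genes. The factors that scale each library for its composition (TMM, in edgeR) lay between 1.31 and 1.42 for the controls and between 0.729 and 0.922 under salt. Levels are given as CPM, the count of a gene relative to the scaled size of its library. A comparison between genes uses CPM per kb of exon. No nuclear root marker could be named from the sources used here, so the tissue rests on the labels. Of 7 plastid genes fixed as marks of green tissue the files name 6, and none of these was at 0 counts in any library. RNA from bulk tissue does not tell fewer cells of a type from less RNA per cell.

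By name the genes fall into the TIFY10 and TIFY11 kinds, after the TIFY motif through which JAZ proteins bind each other and the adaptor NINJA. A RefSeq gene table of another assembly (ASM3414082v1) lists TIFY10A, TIFY10B and TIFY10C as synonyms of JAZ6, JAZ7 and JAZ8. It lists TIFY11A, TIFY11B, TIFY11C, TIFY11D and TIFY11E as synonyms of JAZ9, JAZ10, JAZ11, JAZ12 and JAZ13. The name JAZ9 stands in 2 of its entries, of which the one on chromosome 3 was used. The table does not hold the identifiers of the files, so it was matched by name and chromosome only.

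The TIFY10 genes lay apart from each other. In build IRGSP-1.0, JAZ6 (Os03g0402800) lies at 16407695 to 16410007 on the minus strand of chromosome 3. JAZ7 (Os07g0615200) lies at 25348060 to 25350242 on the plus strand of chromosome 7, and JAZ8 (Os09g0439200) at 16273522 to 16275268 on the minus strand of chromosome 9. The exons of each fill 3, 5 and 5 separate blocks that add up to 1668, 1321 and 1178 bp.

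The TIFY11 genes lay at 2 places and had short models. JAZ9 (Os03g0180800, 4232004 to 4233038, minus strand), JAZ11 (Os03g0180900, 4236724 to 4238058, plus strand) and JAZ10 (Os03g0181100, 4248884 to 4249820, plus strand) stood next to each other on chromosome 3, within 17817 bp and with no counted gene between them. JAZ13 (Os10g0391400, 13031180 to 13032006) and JAZ12 (Os10g0392400, 13069770 to 13070894) lay 37763 bp apart on the minus strand of chromosome 10, with 2 other counted genes between them. Their exons add up to 1035, 1110, 937, 827 and 924 bp. No member shared an exon base with another gene in the files, so no other counted gene overlapped their exons on either strand. Transcripts outside the counted gene models were not examined. How reads that map to several places were counted is not given in the sources used here, and the likeness of the members' sequences was not analysed, so a split of reads between near-identical stretches of neighbours cannot be told apart from a difference in level.

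Within each group the levels ran over a wide range, and JAZ6 led in all 4. Per kb of exon, JAZ6 stood at 165 ± 15.9 (SD, n = 2) CPM in S13 controls, 262 ± 117 (SD, n = 3) in S13 salt, 123 ± 8.89 (SD, n = 2) in S3 controls and 366 ± 47.1 (SD, n = 3) in S3 salt. Its mean lay above that of 97.4% to 98.8% of tested genes, depending on the group. In S13 controls JAZ11, JAZ7, JAZ12 and JAZ10 followed with means of 104, 93.3, 83.6 and 78.2 CPM per kb, and the libraries of each neighbouring pair in this order overlapped. Compared within each library, JAZ11 was above JAZ7 and JAZ7 above JAZ12 in 2 of 2, and JAZ12 above JAZ10 in 1 of 2. JAZ8 followed at 30.1 ± 10.1 (SD, n = 2), JAZ13 at 10.9 ± 5.93 (SD, n = 2) and JAZ9 at 4.03 ± 0.982 (SD, n = 2), each step without overlap.

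JAZ9 was the lowest of the 8 in every group. In rice its overexpression is known to raise tolerance of salt and dehydration. Per kb it stood at 1.22 ± 1.10 (SD, n = 3) CPM in S13 salt, 1.58 ± 0.273 (SD, n = 2) in S3 controls and 2.07 ± 1.88 (SD, n = 3) in S3 salt. Its mean lay above that of 28.4% to 47.1% of tested genes, depending on the group, the highest place being that in S13 controls. The gap to the next gene above it was free of overlap in each of the 4 groups, with ratios of the means from 2.71 in S13 controls to 32.7 in S13 salt.

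In the other groups, too, neighbours in the middle of the order overlapped; ranges over 3 salt libraries overlap more readily than ranges over 2 controls. In S13 salt the ranges of every neighbouring pair overlapped except those of JAZ8 and JAZ9. Compared within each library, JAZ6 was above JAZ12, the next gene by mean, in 3 of 3 S13 salt libraries, and JAZ11 was above JAZ13 in 3 of 3. The order of the pairs JAZ12 and JAZ10, JAZ10 and JAZ11, JAZ13 and JAZ7, and JAZ7 and JAZ8 differed between these libraries. In S3 controls JAZ6 and JAZ11 led without overlap, JAZ12, JAZ7 and JAZ10 overlapped as neighbours, and JAZ8, JAZ13 and JAZ9 followed, each without overlap. Within each S3 control library JAZ12 was above JAZ7 and JAZ7 above JAZ10, in 2 of 2. In S3 salt JAZ6 stood above the next gene without overlap. JAZ11, JAZ12 and JAZ10 then had nearly equal means of 213, 211 and 200.1 CPM per kb, with overlap, ahead of JAZ7, JAZ8 and JAZ13 at 92.5, 79.3 and 52.7. Within each S3 salt library JAZ10 was above JAZ7, in 3 of 3. The other overlapping neighbours kept their order in 2 of 3.

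**Figure D1:**
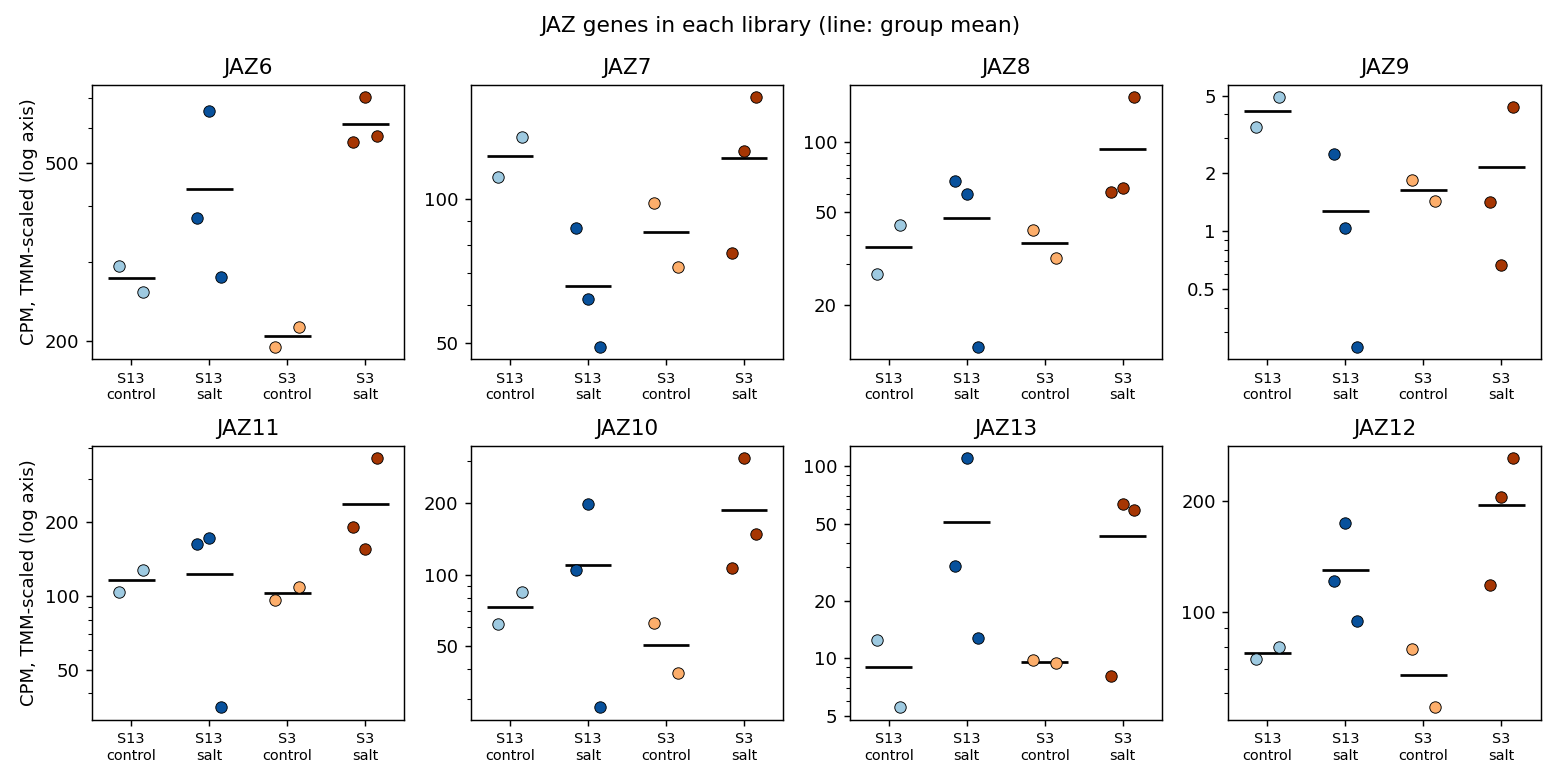
CPM of each of the 8 genes in each library on a log axis, by group, with a line at the group mean; each panel has its own axis. In S3 the salt points of JAZ6, JAZ8, JAZ11, JAZ10 and JAZ12 lie above both controls, while in S13 the salt points of JAZ7 and JAZ9 lie below both controls and salt library 3 is the lowest salt point in all 8 panels.

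The first comparison asks what 140 mM NaCl changed in the susceptible line. In S3, JAZ6 and JAZ12 rose, and the other 6 genes did not pass the test. S3 control libraries held 194 and 215 CPM of JAZ6, the most abundant of the 8, and S3 salt libraries 558, 701 and 574. Every salt library lay well above both controls. The rise was 2.99-fold (log2 fold change 1.58 ± 0.36 SE, Benjamini-Hochberg adjusted p = 0.00921 in the edgeR quasi-likelihood test).

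For JAZ12, on chromosome 10, the S3 controls gave 79.1 and 54.9 CPM and the salt libraries 118, 204 and 261. The groups did not overlap, though the lowest salt library was close to the higher control. The rise was 2.91-fold (log2 fold change 1.54 ± 0.39 SE, adjusted p = 0.0131 in edgeR). These 2 of 8 genes were called higher and 0 of 8 lower, where of all tested genes 14.4% were called higher and 18.4% lower. With 8 genes, 2 calls are close to that background. The libraries did not overlap, with salt above control, for 5 of 8 genes, against 28.2% of all tested genes, and with salt below control for 0 of 8, against 33.6%. Overlap was judged on TMM-scaled CPM only. In raw counts, S3 salt library 1 held 2521 of JAZ12 and 1297 of JAZ8. The smaller S3 control library 1 held more, 2591 and 1366. Of JAZ11, S3 salt library 2 held 2783 counts and the smaller S3 controls 3142 and 3257. Relative to library totals, JAZ12, JAZ8 and JAZ11 thus overlap.

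Leaving out either S3 control, or scaling by library totals, ended at least 1 of these calls, while the fold changes of JAZ6 and JAZ12 stayed positive. In both directions together 32.8% of all tested genes were called. Without S3 control library 1 the count was 0 of 8 where 11.1% of all genes were called, with log2 fold changes of 1.51 for JAZ6 and 1.83 for JAZ12 (adjusted p = 0.0791 and 0.0532 in edgeR). Without S3 control library 2 it was 1 of 8, JAZ6, where 18.1% of all genes were called, with log2 fold changes of 1.66 for JAZ6 and 1.30 for JAZ12. Without S13 salt library 2 or 3, which are in neither S3 group, the count was 4 and 5 of 8, and the share of all genes called was 39.6% and 36.5%. When scaled by library totals alone, the count was 0 where 42.7% of all genes were called, and the log2 fold changes of JAZ6 and JAZ12 were 0.86 and 0.81 (adjusted p = 0.0511 and 0.0978 in edgeR), while the median over all tested genes moved from -0.06 to -0.77. Relative to that median they were 1.63 and 1.58. At an unadjusted p under 0.05 there were 4 of 8 genes, against 44.9% of all tested genes. DESeq2 called 4 of 8, against 34.3%, and limma-voom 2 of 8, against 34.6%.

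In S3 all 8 log2 fold changes were positive, against 47.6% of those of all tested genes, and the other 6 did not pass. The 8 values share their libraries and are not independent of each other. Those of JAZ7 and JAZ9 turned negative with library totals (-0.21 and -0.29). JAZ10 had 62.7 and 38.5 CPM without salt, and 106, 309 and 148 with it. No salt library was as low as a control (log2 fold change 1.89 ± 0.71 SE, adjusted p = 0.0621 in edgeR). It passed in 5 of the 18 alternative settings described below, among them DESeq2 (adjusted p = 0.0133). With library totals its log2 fold change was 1.12 (adjusted p = 0.177 in edgeR).

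JAZ8, which in rice is known as a repressor of jasmonate-induced resistance to bacterial blight, had 41.7 and 31.6 CPM without salt, and 60.9, 63.7 and 156 with it. JAZ11, known in rice for a part in the response to low phosphate, had 95.9 and 109 CPM without salt, and 190.0, 155 and 365 with it. In both genes salt library 3 stood far above the other salt libraries, and the groups did not overlap. Their log2 fold changes were 1.35 ± 0.64 and 1.21 ± 0.59 (SE), with adjusted p = 0.124 and 0.135 in edgeR. Both passed in 2 of the 18 alternative settings. These were the fit with only the S3 groups (adjusted p = 0.0418 and 0.0401 in edgeR) and that without S13 salt library 3 (0.0328 and 0.0255). With library totals their log2 fold changes were 0.65 and 0.52 (adjusted p = 0.434 and 0.495 in edgeR).

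JAZ13, JAZ7 and JAZ9 overlapped between control and salt in S3. JAZ13 had 9.80 and 9.47 CPM without salt, and 8.12, 63.5 and 59.1 with it. Salt library 1 thus lay below both controls and the other salt libraries several-fold above them. Its log2 fold change was 2.18 ± 0.96 (SE), and the adjusted p in edgeR was 0.103. It passed in 4 of the 18 alternative settings, among them DESeq2 (adjusted p = 0.0271). In edgeR it passed without S3 salt library 1 (adjusted p = 0.0420), without S13 salt library 2 (0.0458) and with only the S3 groups (0.0467). JAZ7 had 98.4 and 72.0 CPM without salt, and 77.1, 126 and 163 with it. JAZ9 had 1.83 and 1.43 CPM without salt, and 1.41, 0.667 and 4.35 with it, on 60, 43, 30, 12 and 90 counts. Neither gene separated the groups, with log2 fold changes of 0.52 ± 0.35 and 0.39 ± 0.84 (SE) and adjusted p = 0.279 and 0.748 in edgeR. The summed CPM of the 6 plastid genes was 108 to 129 in S3 controls and 152 to 255 in S3 salt, and its part in these results was not tested. This gap rests on the TMM factors: relative to library totals the plastid sums of the S3 groups overlap. In S13 the sums overlapped, at 175 and 78.7 in controls and 68.0, 173 and 149 under salt.

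The same comparison in the tolerant line called none of the 8 genes. In S13, 0 of 8 genes were called higher and 0 of 8 lower by the edgeR quasi-likelihood test, where 12.8% of all tested genes were called higher and 14.2% lower. At an unadjusted p under 0.05 there were 2 of 8, JAZ7 and JAZ13, against 40.9% of all tested genes. DESeq2 called 1 of 8, JAZ13, against 30.8%, and limma-voom 0 of 8, against 29.1%; edgeR called 27.1% in both directions together. In TMM-scaled CPM, salt libraries lay above both controls without overlap for 2 of 8 genes, JAZ13 and JAZ12, against 25.8% of all tested genes. Relative to library totals both genes overlap. S13 salt library 3, the largest library, held 252 and 1865 counts of them, and S13 control library 1 held 409 and 2437. In TMM-scaled CPM, salt libraries lay below both controls for 2 of 8, JAZ7 and JAZ9, against 31.8%.

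S13 control libraries held 111 and 135 CPM of JAZ7, and S13 salt libraries 87.0, 61.7 and 49.2. Each salt library lay below both controls (log2 fold change -0.90 ± 0.35 SE, adjusted p = 0.0740 in edgeR). When scaled by library totals alone, it was -1.61 and passed (adjusted p = 0.00737 in edgeR), with a median of -0.76 over all tested genes.

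For JAZ9 the S13 controls gave 3.45 and 4.89 CPM and the salt libraries 2.51, 1.04 and 0.253. These values rest on few reads, 113 and 160 counts in the controls and 57, 18 and 5 under salt. The salt libraries lay below both controls and differed widely among themselves (log2 fold change -1.70 ± 0.82 SE, adjusted p = 0.144 in edgeR). With library totals it was -2.36 and passed (adjusted p = 0.0466 in edgeR).

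JAZ13 had 12.5 and 5.56 CPM without salt, and 30.1, 110.4 and 12.7 with it. Salt library 2 stood far above the rest and salt library 3 just above the higher control. The log2 fold change of 2.50 ± 0.98 (SE) was the largest of the 8 in S13 and missed the threshold (adjusted p = 0.0794 in edgeR). It passed without S13 salt library 3 (adjusted p = 0.0372) and without S3 salt library 1 (0.0449), and these were the leave-outs that made the count 1 of 8, where 23.9% and 26.0% of all genes were called. Without S13 salt library 2 the log2 fold change was 1.25 (adjusted p = 0.257).

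The genes that rose in S3 did not pass in S13. JAZ6 had 295 and 257 CPM without salt, and 376, 655 and 278 with it, so that salt library 3 lay between the controls. Its log2 fold change was 0.66 ± 0.35 (SE), and 0.24 without salt library 2. JAZ12 had 74.5 and 80.1 CPM without salt, and 121, 174 and 94.2 with it, with no overlap and a log2 fold change of 0.75 ± 0.37 (SE). Their adjusted p were 0.180 and 0.156 in edgeR. With library totals their log2 fold changes were -0.10 and -0.0028, again against a median of -0.76.

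JAZ8, JAZ11 and JAZ10 each had 2 salt libraries above both S13 controls and salt library 3 below both. JAZ8 had 27.1 and 43.9 CPM without salt, and 68.1, 60.0 and 13.2 with it. JAZ11 had 103 and 128 CPM without salt, and 162, 171 and 35.1 with it. JAZ10 had 61.8 and 84.7 CPM without salt, and 105, 197 and 27.7 with it. Their log2 fold changes of 0.41, 0.09 and 0.59 did not pass (adjusted p = 0.646, 0.925 and 0.540 in edgeR) and turned to -0.30, -0.63 and -0.17 with library totals.

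S13 salt library 3 was the lowest of its group for all 8 genes. The median over the 8 genes of its deviation from the group mean was -1.47 on the log2 scale, while the median over all tested genes was 0.0 and 49.5% of genes lay above the group mean. In S3 salt library 1 was below the group mean for all 8 genes (median log2 deviation -0.53). Summed over the 8 genes, S13 salt libraries held 952, 1431 and 510.1 CPM and S3 salt libraries 1120.2, 1623 and 1730.3, against 689 and 739 in S13 controls and 583 and 531 in S3 controls. The S3 salt sums all lay above the S3 controls, and the S13 salt sums lay on both sides of the S13 controls.

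**Figure D2:**
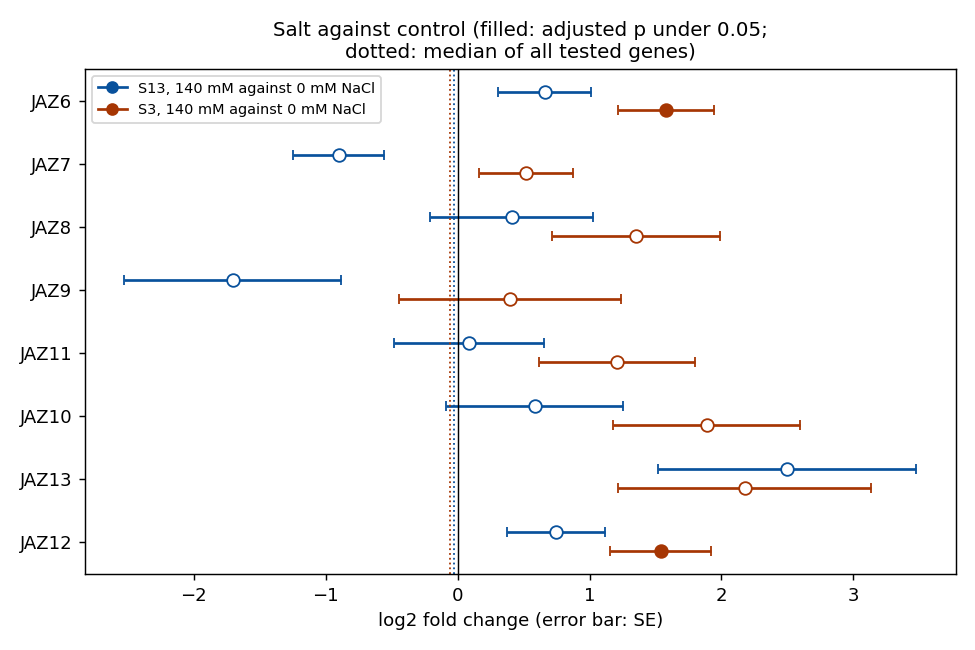
Log2 fold change of salt against control with its SE for each of the 8 genes in S13 (blue) and S3 (brown); filled points passed an adjusted p of 0.05 and dotted lines mark the medians of all tested genes. Only JAZ6 and JAZ12 in S3 are filled, and the S13 point lies to the left of the S3 point for every gene but JAZ13.

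The difference between the lines' responses was tested directly and was called for none of the 8 genes. The edgeR quasi-likelihood test called 0.0% of all tested genes, while DESeq2 called 0.464% of those it tested; DESeq2 and limma-voom called 0 of the 8 genes as well. At an unadjusted p under 0.05 there was 1 of 8, JAZ7, against 8.64% of all tested genes. Its response in S13 minus that in S3 was -1.42 ± 0.50 (SE) with an approximate 95% interval from -2.52 to -0.33 and adjusted p = 0.507 in edgeR. For JAZ6 and JAZ12, which passed in S3 alone, the difference was -0.92 ± 0.49 and -0.79 ± 0.52 (SE), with intervals from -2.0 to 0.16 and from -1.93 to 0.35. Both intervals include 0.

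The difference was negative for 7 of 8 genes, with a median of -1.03 against 0.06 over all tested genes, of which 53.3% were positive. These 7 values share their libraries and are not independent of each other. Without S13 salt library 3, in which all 8 genes were low, 7 of 8 were still negative and the median was -0.68. JAZ13 was the exception, at 0.32 ± 1.25 (SE), and turned negative without S13 control library 2, without S13 salt library 2 and without S3 salt library 1.

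Between the lines no gene of the 8 was called, without or with salt. In the controls 0 of 8 were called by the edgeR quasi-likelihood test, where 1.42% of all tested genes were, and under salt 0 of 8, where 3.57% were. At an unadjusted p under 0.05 there were 0 of 8 in the controls, against 8.75% of all tested genes, and 1 of 8, JAZ7, under salt, against 15.7%. DESeq2 called 0 of 8 in both, against 2.54% in the controls and 6.03% under salt. For limma-voom, which also called 0 of 8 in both, these shares were 1.86% and 3.36%. Without salt JAZ6, JAZ7 and JAZ9 were higher in both S13 libraries than in both S3 libraries, which held for 21.9% of all tested genes, and 0 of 8 were lower in this way, against 25.1%. The widest of these was JAZ9, at 4.17 ± 1.02 (SD, n = 2) CPM in S13 and 1.63 ± 0.282 (SD, n = 2) in S3, and its log2 fold change of 1.35 ± 0.91 (SE) did not pass (adjusted p = 0.813 in edgeR).

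Under salt the libraries of the lines overlapped for all 8 genes, whereas S13 lay wholly above S3 for 8.74% of all tested genes and wholly below for 8.8%. JAZ7 came nearest to the threshold, at 66.0 ± 19.3 (SD, n = 3) CPM in S13 and 122 ± 43.2 (SD, n = 3) in S3, with a log2 fold change of -0.89 ± 0.32 (SE), an interval from -1.58 to -0.19 and adjusted p = 0.188 in edgeR. The log2 fold changes were negative for 7 of 8 genes under salt, with a median of -0.76, and positive for 6 of 8 without it, with a median of 0.32. Over all tested genes the medians were 0.03 under salt and -0.04 without it, and 52.3% and 46.6% of log2 fold changes were positive. Values of the 8 genes share their libraries and are not independent of each other. Under salt the median was -0.36 without S13 salt library 3 (7 of 8 negative) and -0.45 without S3 salt library 3 (6 of 8 negative). None of the 8 genes passed in either comparison.

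**Figure D3:**
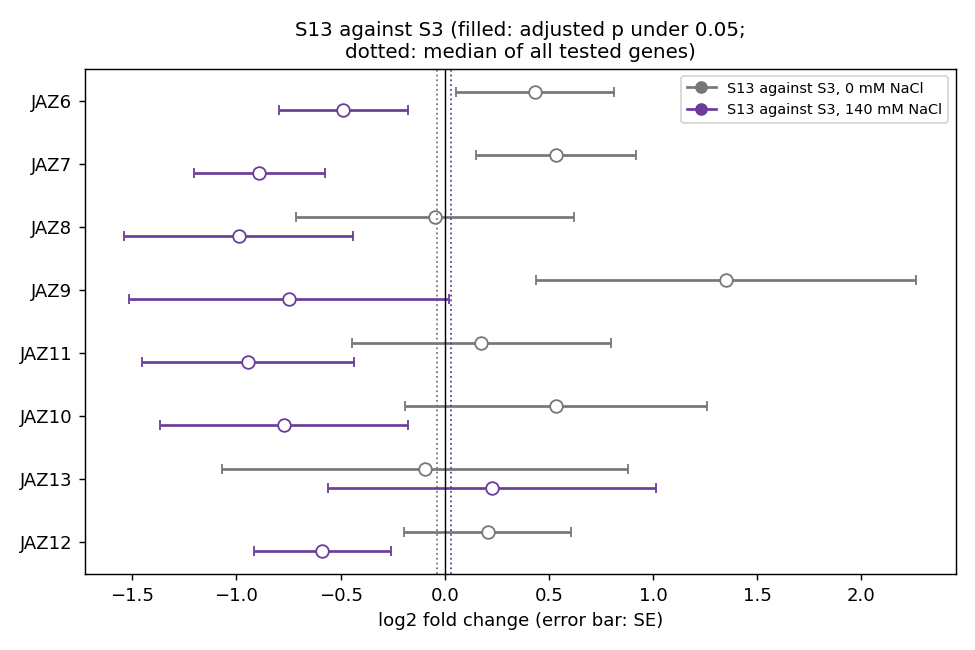
Log2 fold change of S13 against S3 with its SE for each of the 8 genes without salt (grey) and with salt (purple); open points did not pass an adjusted p of 0.05 and dotted lines mark the medians of all tested genes. No point is filled, and the salt points of all genes but JAZ13 lie left of zero.

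The make-up of the JAZ transcripts does not depend on the scaling of a library, because each gene is set against the sum of the 8 in the same library. JAZ7 made up 15.6% and 17.1% of the summed CPM per kb in S13 controls and 15.6% and 12.9% in S3 controls. Under salt its share was 8.48%, 3.97% and 9.45% in S13 and 6.72%, 7.14% and 8.55% in S3. In each of the 6 salt libraries the share was below that in each of the 4 controls. Shares of 1 sum depend on each other, so a lower share of JAZ7 goes with higher shares elsewhere and says nothing of its own level, which in S3 was at 85.2 ± 18.6 (SD, n = 2) CPM without and 122 ± 43.2 (SD, n = 3) with salt.

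The share of JAZ9 behaved likewise at a far lower level, at 0.329% to 0.791% in the 4 controls and 0.0481% to 0.312% in the 6 salt libraries. JAZ6 held the largest share, 29.2% ± 4.79 (SD, n = 2) in S13 controls, 34.9% ± 6.78 (SD, n = 3) in S13 salt, 27.4% ± 4.45 (SD, n = 2) in S3 controls and 31.3% ± 7.34 (SD, n = 3) in S3 salt, with overlap between control and salt in each line. The share of JAZ12 was 14.7% ± 0.257 (SD, n = 2) and 19.6% ± 5.49 (SD, n = 3) in S13 and 16.0% ± 2.67 (SD, n = 2) and 17.0% ± 2.45 (SD, n = 3) in S3. These patterns of shares were noticed in the data and no test was made of them.

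**Figure D4:**
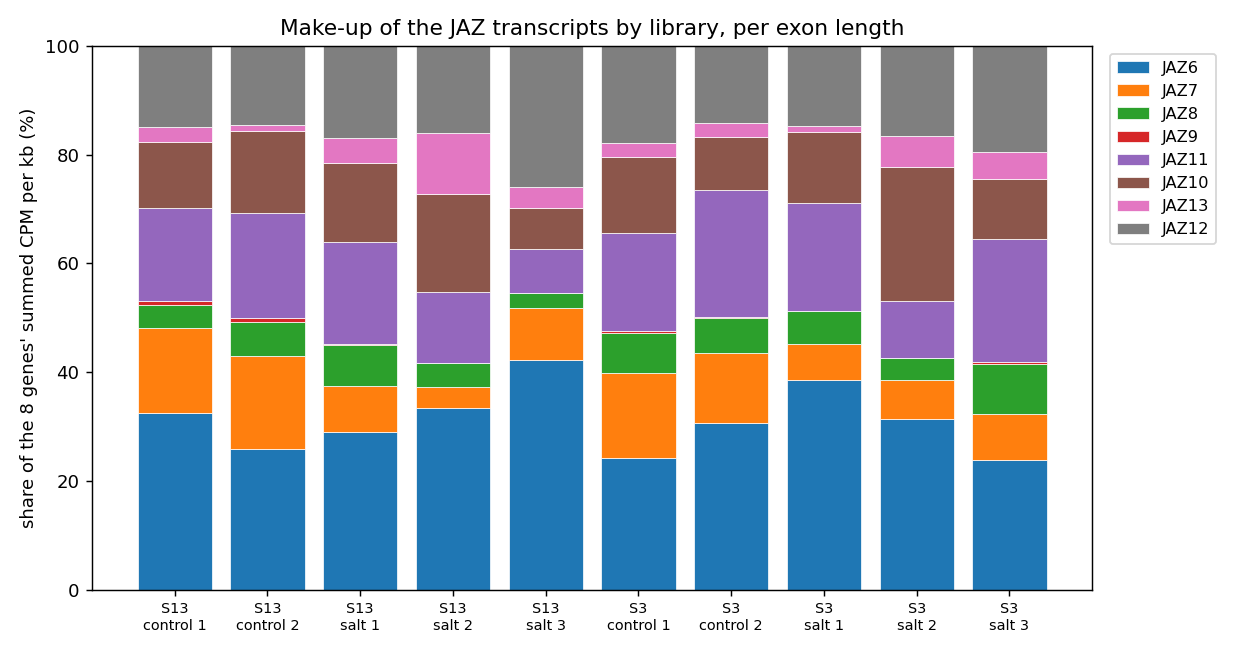
Share of each gene in the 8 genes' summed CPM per kb of exon, in percent, 1 bar for each of the 10 libraries. The JAZ7 part (orange) spans 12.9% to 17.1% across the controls and 3.97% to 9.45% under salt, and JAZ6 (blue) is the largest part in all 10 libraries, at 23.8% to 42.3%.

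The most similar profiles belonged to genes on different chromosomes. Likeness was measured as the root mean square difference of log2 CPM over the 10 libraries after each profile was centred on its own mean, and these libraries share the split into control and salt. The most alike pair was JAZ8 on chromosome 9 and JAZ11 on chromosome 3, with a difference of 0.24. None of 15685 other genes with a mean of at least 5 CPM was nearer to either. JAZ6 and JAZ12 came next with 0.32, and 2.01% of those genes were nearer to JAZ6 and 0.30% to JAZ12. For JAZ10, JAZ9 and JAZ13, 0.57%, 1.05% and 2.71% of those genes were nearer than the nearest member. For JAZ7 this share was the highest: its nearest member, JAZ11, lay at 0.65, and 29.0% of those genes were nearer. The distance itself was below those of JAZ9 and JAZ13 to their nearest members, 0.85 and 0.92, and above those of the other members. JAZ7 was also the member closest to genes in general. Its median difference from them was 0.75, where the other members had 0.79 to 1.44. JAZ11 and JAZ10, neighbours on chromosome 3, differed by 0.68, JAZ9 and JAZ11 by 0.93, and JAZ13 and JAZ12 on chromosome 10 by 0.92, JAZ12 being the member nearest to JAZ13.

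JAZ9 and JAZ13 stood furthest from each other, at 1.96, and furthest from the mean profile of the 8 genes, at 1.06 and 1.02, where the other members lay at 0.34 to 0.54. With a mean of 2.18 CPM, JAZ9 was below the 5 CPM required of the genes outside the 8. The part of counting error in its distances was not tested. The genes outside the 8 that came nearest to the mean profile were Os05g0519000 (chromosome 5, 25760389 to 25761404) at 0.16 and Os05g0474900 (chromosome 5, 23317206 to 23319965) at 0.21, against a median of 0.84 over the genes compared. The sources used here do not pair these identifiers with names. Neither was called for salt in either line. On chromosome 10, of the 2 genes between JAZ13 and JAZ12, Os10g0391801 was too low to be tested, with mean values of 0 to 0.0313 CPM by group. The other, Os10g0391500, fell in S3 (log2 fold change -0.96, adjusted p = 0.0107 in edgeR), where JAZ12 rose and 18.4% of all tested genes were called lower. In S13 its log2 fold change was -0.64 and did not pass (adjusted p = 0.0622 in edgeR). The difference of its responses was 0.32 (adjusted p = 0.815 in edgeR), so the fall was not shown to be particular to S3.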

How the data were processed

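The authors deposited a table per library of raw read counts per gene, not normalized, with exon coordinates and lengths, per the file headers. The tools FastQC, Trimmomatic, HISAT2, featureCounts and DESeq2 and the build IRGSP-1.0 are named, without versions, in the submitters' processing notes; settings and use of strand are not stated there. The deposited counts were tested with edgeR 4.0.16 (R 4.3.3) by its quasi-likelihood test: all 10 libraries, 1 mean for each of the 4 groups, TMM factors, no replicate block. Filtering by filterByExpr kept 28189 of 38978 genes. In each of 5 contrasts a gene was called when its p, adjusted by Benjamini-Hochberg over every tested gene, was under 0.05. Log2 fold changes are edgeR's own estimates from the deposited counts. In a library 3 counts, the limit that a count of 0 allows, equal 0.0916 to 0.173 CPM (counting error only). Replicates differed by 36.9 to 224 times the sampling variance, so none was treated as 1 library deposited more than once; this does not show that they are separate plants. Alternatives were DESeq2 1.42.0, limma-voom (limma 3.58.1), other scalings and filters, the compared groups alone, a replicate block and leaving out each library. Each SE is the size of the log2 fold change divided by the square root of the test's F statistic. Approximate 95% intervals use this SE and a t quantile matched to the unadjusted p. Both therefore restate the test and are no separate measure of spread.

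The members and lists were chosen with earlier results of these data known. By rule all 8 members and the 2 nearest profiles are named; Os10g0391500 and Os10g0391801 were named after their values were seen. A list of 14 further jasmonate genes and 3 root markers were not used, since 0 of their identifiers are paired with a name in the reference table, and it holds no sequences.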

Additional observations from a re-analysis of the deposited data

How the results depend on the processing

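Of the member counts, those between the lines and for the difference of the responses stayed at 0 under every alternative. For salt in S13 the count of 0 became 2 with library totals (JAZ7 and JAZ9, lower; 40.4% of all genes called) and 1 with DESeq2 (JAZ13, higher; 30.8%), against 27.1% of all genes called as reported, and ranged from 0 to 1 when each library was left out. For salt in S3 the count of 2 became 0 with library totals (42.7% of all genes called), 4 with DESeq2 (34.3%) and 6 with only the groups compared (36.5%), against 32.8% as reported, and ranged from 0 to 5 over the left-out libraries. The cause was not tested, except that leaving out a control leaves 1 library, assumed to vary like the other groups. Over the left-out salt libraries, 21.4% to 27.6% of all genes were called for salt in S13 and 21.2% to 39.6% in S3. JAZ9 was not tested under the filter of 5 CPM. With the replicate block the S3 count was 3 (29.7% of all genes called) and the S13 count 0 (21.7%). Deviations of same-numbered libraries correlated at -0.135 to 0.199 over 13 pairs, and those of other pairs at -0.228 to 0.239 over 24. Of 10 libraries, 2 correlated best with their own number. In a group of 2 libraries the deviations mirror each other, so these values are not independent and cannot settle whether the numbers pair samples. The labels do not say so, and the numbers were not taken to pair the samples.

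Some directions reversed, in each case without a call. With library totals the log2 fold changes in S13 became -0.10 (JAZ6), -0.30 (JAZ8), -0.63 (JAZ11), -0.17 (JAZ10) and -0.0028 (JAZ12), and in S3 -0.21 (JAZ7) and -0.29 (JAZ9); relative to the median of all genes none of these turned. JAZ11 in S13 was -0.21 in limma-voom, and JAZ13 between controls 0.043 with the replicate block. When each library was left out, these values crossed 0: salt in S13, JAZ11 from -0.23 to 0.53 and JAZ10 from -0.14 to 1.04; salt in S3, JAZ9 from -0.64 to 0.82; between controls, JAZ8 from -0.43 to 0.26, JAZ13 from -0.79 to 0.38 and JAZ12 from -0.031 to 0.50; between salt groups, JAZ13 from -1.02 to 0.69 and JAZ9 from -1.77 to 0.29; and for the difference of the responses, JAZ13 from -0.93 to 1.02. The cause was not tested. Mean CPM by group stayed within 1 SD for all 32 values with DESeq2 size factors and for 16 with library totals. Depth limits JAZ9 most, with 5 to 160 counts in a library.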
